A study of Mus musculus with 10 samples.

Results

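The regions described here are 678 peaks of SOX9 chromatin immunoprecipitation that were present in all 3 deposited peak lists and lay away from the ends of genes. They were chosen from the 8181 peaks of the first list of hair follicle stem cells (HFSC list 1), as those that shared at least 1 bp with a peak of the second HFSC list and with a peak of the list of interfollicular epidermal (IFE) cells, and that lay more than 1 kb from the start and the end of every gene locus of the expression table. A locus is the span that the table gives for a gene row, on mouse build mm9. Of all HFSC list 1 peaks, 1248 were in all 3 lists, and 570 of these lay within 1 kb of a locus edge and are not among the 678. The shared peaks made up 10.5% of the 6474 HFSC list 1 peaks away from edges. The same rules applied to the peaks of the other lists chose 684 (43.2%) of the 1582 peaks of HFSC list 2 away from edges. They chose 692 (24.3%) of the 2844 such IFE peaks. Edges and overlaps were then measured from the borders of those peaks, so these sets need not match the 678 regions exactly. The overlaps and the distances chose the regions, so these shares describe the choice and carry no test. Whether SOX9 binds the regions in either kind of cell was not tested.

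SOX9 is a transcription factor that binds DNA through an HMG box, bends it, and often acts from enhancers, regulatory stretches far from the promoters of the genes they serve. In skin it is best known from the bulge, the part of the resting hair follicle that holds its stem cells, while the interfollicular epidermis is renewed by its own basal cells. An enhancer may lie within a gene or between genes, and the gene it serves need not be the nearest.

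SOX9 was immunoprecipitated from chromatin of untreated CD-1 females at postnatal days 52 to 60, from sorted back skin cells. HFSCs (2 libraries) were integrin α6-high, CD34-positive and ScaI-negative, and IFE cells (1 library) were integrin α6-high, CD34-negative and ScaI-negative. RNA was sequenced from α6-high, CD34-positive, ScaI-negative, YFP-positive HFSCs of C57BL6 or mixed background, in 2 libraries labelled Sox9 conditional knockout (cKO) and 2 labelled control. The titles of the control libraries read Het while their genotype field reads wild type (control), and the animals were given RU486, which activates the CrePGR recombinase. Replicate 1 of each genotype was male, day 75, given RU486 on days 48 to 61, and replicate 2 female, day 80, given it on days 53 to 66. The peaks and the RNA therefore came from mice of different strain, age and treatment. The sources used here do not give what drives the recombinase or whether animals were pooled. All p-values below thus reflect how these 4 libraries vary and no wider sampling of mice.

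No genome of build mm9 was used, so the bases of the peaks themselves, and whether they fall in exons or introns, were not analysed here. Among the genes at or nearest to the peaks were 20 rows of microRNA hairpins, and RefSeq (GRCm38.p6) holds mature sequences for 16 of them. MicroRNAs are short RNAs that lower the output of messenger RNAs matching their seed, bases 2 to 8. The sequences below are shown because the Mir23a row carries the single lower call among the linked genes, because the let-7a and miR-27b rows were also measurable, and because miR-205 is an abundant microRNA of skin epithelium. They run 5′ to 3′ with the seed in capitals.
miR-23a-3p: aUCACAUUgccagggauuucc
miR-23a-5p: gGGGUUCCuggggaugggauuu
miR-27b-3p: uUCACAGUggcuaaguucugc
let-7a-5p: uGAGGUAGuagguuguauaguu
miR-205-5p: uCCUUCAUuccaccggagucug

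The regions were chosen for overlap, so the distances between the middles of their peaks describe that choice. The middle of the HFSC list 2 peak lay a median of 61.2 bp from the middle of the HFSC list 1 peak, and that of the IFE peak 66.5 bp. Both other middles were within 100 bp at 385 of the 678 regions (56.8%), and within 25 bp at 54, while at the other regions at least 1 of them was further away. Where several peaks of a list overlapped, the one with the longest overlap was taken. The 3 peaks had a median of 494 bp in common, and at 3 regions the HFSC list 2 and IFE peaks so taken did not meet each other. Fewer than 100 bp were shared with one of the other lists at 2 regions.

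The width of the peaks was a median of 759 bp in HFSC list 1 (quartiles 641 and 910, range 165 to 6347), 642 bp in HFSC list 2 and 582 bp in the IFE list. The HFSC list 1 peak was wider than the IFE peak at 547 regions (80.7%) and wider than the HFSC list 2 peak at 512 (75.5%). The other 5796 HFSC list 1 peaks away from edges had a median width of 602 bp. Among these, the 653 peaks in both HFSC lists and not in the IFE list had a median of 774 bp. The 776 also in the IFE list but not in HFSC list 2 had 576 bp, and the 4367 of HFSC list 1 alone 588 bp. Greater width was thus not particular to the shared peaks. A wide peak overlaps another more easily, so the choice itself favours width.

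**Figure D1:**
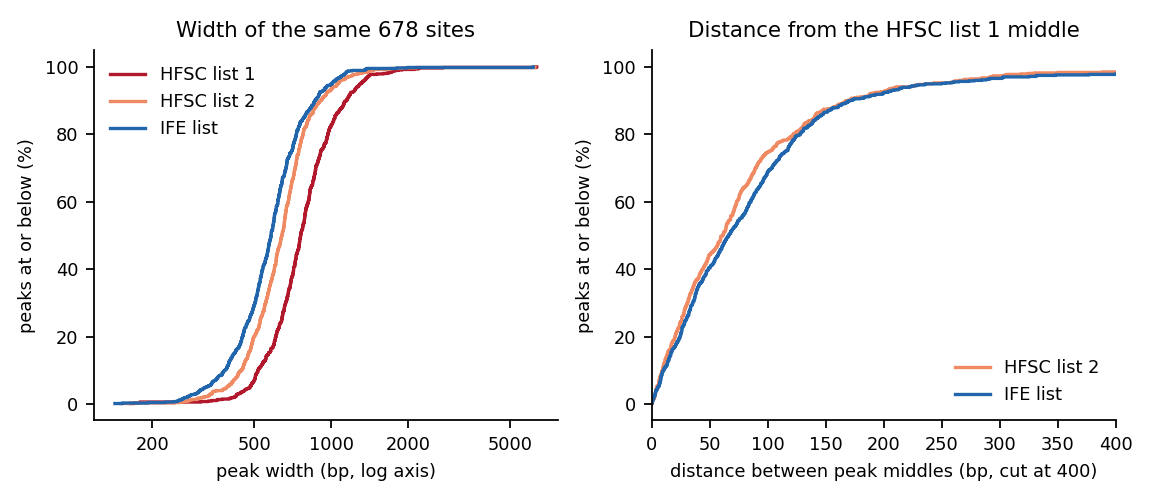
Left, cumulative share (%) of the 678 regions by the width of the peak in each list (bp, log axis), with HFSC list 1 widest (median 759 bp), then HFSC list 2 (642 bp) and the IFE list (582 bp). Right, cumulative share by the distance between the middle of the HFSC list 1 peak and that of the other list (bp), with medians of 61.2 bp for HFSC list 2 and 66.5 bp for the IFE list.

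More of the shared peaks lay inside gene loci than between them. Of the 678, 409 (60.3%, exact 95% interval 56.5 to 64.0%) lay within a locus and 269 (39.7%) outside every locus. Among HFSC list 1 peaks under the same edge rule, those also in the IFE list but not in HFSC list 2 had nearly the same share inside, 59.3% of 776 (55.7 to 62.8%). Peaks in both HFSC lists and not in the IFE list had 48.9% of 653 inside (45.0 to 52.8%), and peaks of HFSC list 1 alone 49.6% of 4367 (48.2 to 51.1%). The intervals cover counting error only, and peaks are not replicates of a cell type. With no distance rule, 37.7% of the 1248 peaks in all 3 lists lay wholly inside, since peaks at the edges then count too. Without the requirement for the IFE list, 54.7% of the resulting 1331 peaks were inside.

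**Figure D2:**
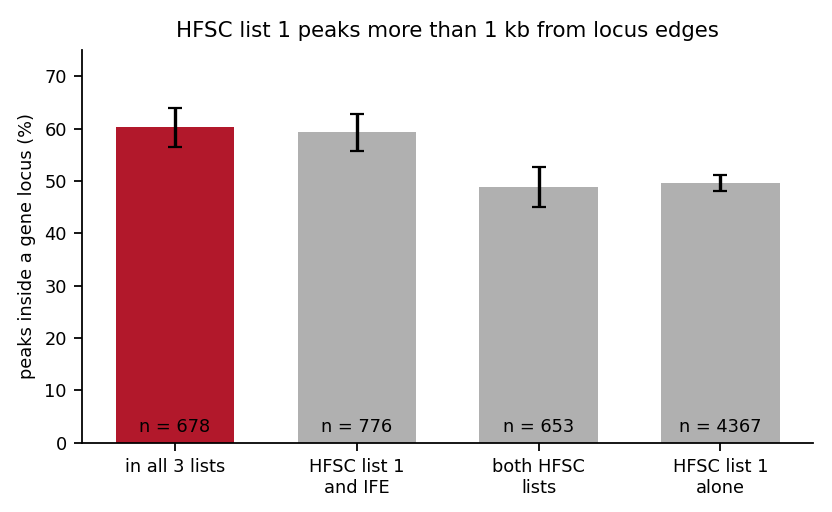
Share (%) of HFSC list 1 peaks inside a gene locus, for peaks more than 1 kb from locus edges, by the lists they were found in. Bars are shares and whiskers exact 95% intervals: the 678 peaks in all 3 lists stood at 60.3%, and the 653 peaks of both HFSC lists without IFE at 48.9%.

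Which gene a peak inside a locus belongs to was often unclear, because 14454 of the 37298 gene rows share their coordinates with another row. A locus held by 1 gene row contained 172 of the peaks (25.4%), and 237 (34.96%) lay in a locus shared by 2 or more rows, whose inner promoters the edge rule does not remove. In loci of 1 row, the peaks stood at a median of 26.8% of the locus length from its nearer end, where positions spread evenly over a locus would give values from 0 to 50.

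Peaks outside loci were a median of 14557 bp from the nearest one (quartiles 5743 and 33194), against 24063 bp for the other HFSC list 1 peaks outside loci and away from edges. Among those others, peaks also in the IFE list but not in HFSC list 2 had 17913 bp. Peaks of both HFSC lists without IFE had 26152.5 bp, and peaks of HFSC list 1 alone 24740 bp. Of the 269, 105 (39.0%) were within 10 kb and 19 (7.06%) beyond 100 kb. The shortest distances were 1014 bp from Arid5a, 1019 bp from Foxo3 and 1040 bp from Neat1, a long non-coding RNA of nuclear paraspeckles. The longest was 403783 bp, at chr3:21570498-21571790, whose nearest locus was Tbl1xr1. Just inside the 1 kb limit stood the peaks at 1014, 1019 and 1033 bp from the edges of Arid5a, Foxo3 and the shared locus of Vwa1. Just outside it stood peaks at 961 bp from Kctd17, 944 bp from Irf2bp2 and 935 bp from Krt14, the basal keratin.

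The peaks were spread over the autosomes and X. Chromosome 7 held the most, 64 (9.44% of the 678), and 18.7% of the HFSC list 1 peaks away from edges on that chromosome were shared, against 10.5% over the genome. Most stood alone: the median distance to the next shared peak was 497358 bp, and 98 (14.5%) had another within 25 kb. Those 98 formed 41 clusters, of which 35 were pairs.

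The densest cluster and the widest peaks stood apart from the rest. Whether these or any other shared peaks reflect SOX9 binding was not tested. The input libraries were not used, the lists hold no score and the bases of the peaks were not analysed. At chr9:3001996-3036705, 11 shared peaks fell within 34710 bp, among 12, 13 and 15 peaks of HFSC list 1, HFSC list 2 and the IFE list. All 11 lay in a locus that 13 predicted Gm genes share, and none of the 13 rows passed the expression filter. In the replicate 1 libraries these rows were at 0.0116 FPKM or less (cKO) and listed at 0 (control). In replicate 2 they ranged from 0.269 to 2.64 FPKM in cKO and from 0.0467 to 0.829 FPKM in control. The widest shared peak, of 6347 bp, lay at chr11:3090861-3097207 in the shared locus of Sfi1, Drg1 and Eif4enif1, where the HFSC list 2 and IFE peaks were 6249 and 6158 bp wide. Of the 15 shared peaks of 1500 bp or more, 3 were at least that wide in both other lists. A further 4 peaks lay within 10008 bp at chrX:166426394-166436401, in the shared locus of Mid1. Without the 19 peaks that had at least 3 others within 25 kb, 59.8% of the remaining 659 lay inside loci.

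Several genes of known role held more than one shared peak in a locus of their own. There were 15 such loci, 14 of them with an expression level that passed the filter. They included Gli2, a transcription factor of the hedgehog pathway, Dkk3, a secreted protein of the Dickkopf family, and Kank1, a regulator of the actin skeleton. Others encode the transcriptional repressor Cic, the phosphatase receptor Ptprs, the RNA-editing enzyme Adarb1 and Ppp1r13l, an inhibitor of p53. The peaks of Gli2 lay at chr1:120769925-120770630 and chr1:120943861-120944869, both inside its 219489 bp locus. No shared peak lay within the Sox9 locus (chr11:112643537-112649074). The nearest at higher coordinates were at chr11:112966638-112967462, 317564 bp away and inside 2610035D17Rik, and at chr11:113120908-113121661, 471834 bp away.

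The layout around 4 genes shows how the lists coincide. At Errfi1, which encodes an inhibitor of the EGF receptor, a shared peak at chr4:150239756-150240563 lay inside the locus and a second, 1826 bp wide, at chr4:150244972-150246797, 1971 bp beyond its upper end. The second spanned 1 peak of HFSC list 2 and 2 IFE peaks, of which the narrower met the HFSC list 2 peak. Near Mir23a, 4 shared peaks lay between chr8:86716243 and chr8:86726147, on the lower side of the hairpin. For 3 of them the hairpin was the nearest locus, at 6269 to 8517 bp, and 1 was nearer to Mir181c. The middle one of the 3 met HFSC list 2 peaks only at its borders, over fewer than 100 bp. It shared an HFSC list 2 peak and its IFE peak with the one nearest to Mir23a, so they were not matched separately. Dkk3 had shared peaks at chr7:119287343-119288622 and chr7:119300963-119301496, both inside its locus. Trp63, the master transcription factor of stratified epithelia, had 1, at chr16:25843603-25844993, with peaks of 1391, 1396 and 1143 bp in HFSC list 1, HFSC list 2 and the IFE list. The same locus held further peaks of HFSC list 1 that were absent from HFSC list 2.

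**Figure D3:**
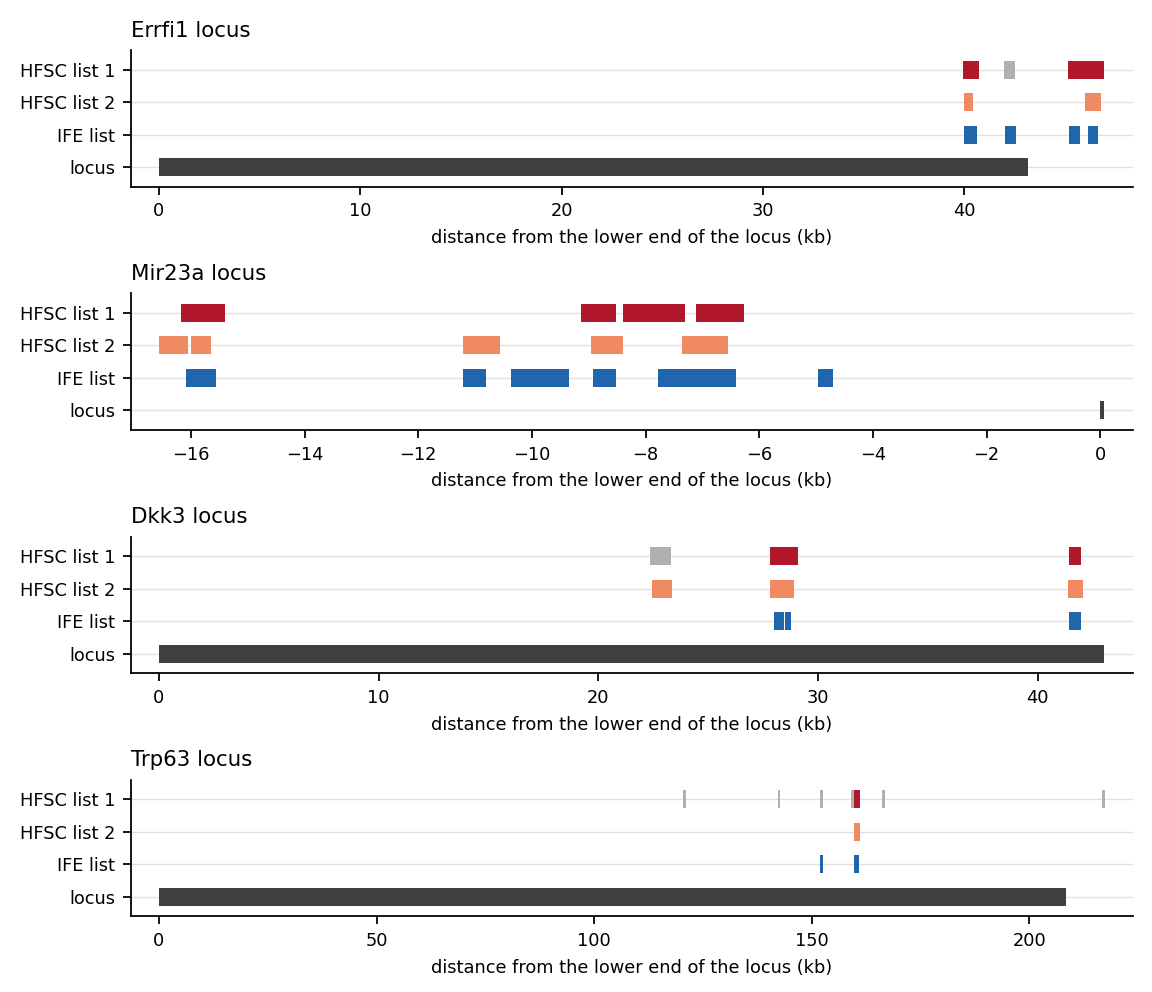
Peaks of HFSC list 1 (red where shared by all 3 lists and away from edges, grey otherwise), HFSC list 2 (orange) and the IFE list (blue) around the loci (dark bars) of Errfi1, Mir23a, Dkk3 and Trp63, by distance from the lower end of the locus (kb). The shared peaks of Errfi1 lie near and beyond the upper end of the locus, and those near Mir23a lie on the lower side of the hairpin.

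Sox9 itself stood at 71.3 and 80.5 FPKM in cKO libraries, against 82.7 and 46.5 FPKM in control, so the groups overlapped and the table does not show the deletion. The groups are therefore named by their labels. A row over the whole gene need not lose its fragments when part of the gene is deleted. Whether this holds for Sox9 in these libraries was not tested. The 7 HFSC markers summed to 9517 and 11582 FPKM in cKO and 10941 and 10366 FPKM in control, most of it Krt15. One of them, Lhx2, a transcription factor of bulge stem cells that is not linked to a shared peak, was called lower in limma's blocked fit, at 114 and 87.1 FPKM in cKO and 359 and 195 FPKM in control (log2 change -1.40 ± 0.15, adjusted p 0.0273), and none was called on genotype alone. Endothelial markers summed to at most 0.249 FPKM. Markers of differentiated epidermis summed to 2511 and 4666 FPKM in cKO and 2648 and 7285 FPKM in control. Fibroblast and muscle markers were highest in cKO replicate 2, at 8.28 and 40.95 FPKM, against at most 2.05 and 2.92 FPKM in the others. Immune cell markers summed to 31.2 and 51.4 FPKM in cKO and 32.8 and 77.8 FPKM in control. Sebocyte markers summed to 193 and 71.0 FPKM in cKO and 153 and 78.4 FPKM in control. For melanocyte markers the sums were 47.3 and 14.8 FPKM in cKO and 42.7 and 17.4 FPKM in control. The part of these cells in the results below was not tested. In sorted bulk cells, fewer cells of a type and less RNA per cell cannot be told apart.

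A gene was linked to a shared peak when its locus contained one, or, for a peak outside loci, when it was the nearest locus within 100 kb. This gave 1345 gene rows at 576 loci, 1065 of them with a peak inside and 332 alone at their locus. Crowded loci of 10 or more rows supplied 288 of them from 8 loci. Of the linked rows, 765 (56.9%) had a mean of at least 1 FPKM and were tested, against 38.8% of all 37298 rows. The tested linked genes had a median control level of 20.1 FPKM, against 12.3 FPKM for all tested genes.

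Linked genes as a whole had a median change close to 0. Their median log2 change, cKO over control, was -0.023 on the log2(FPKM + 1) scale, against -0.0064 for all 14455 tested genes. It was -0.075 in the male pair and 0.0054 in the female pair. It also changed sign with single libraries: -0.14 without cKO replicate 1, 0.046 without cKO replicate 2, 0.089 without control replicate 1 and -0.18 without control replicate 2. In limma's test on genotype alone, 0 of the 765 genes had an adjusted p under 0.05 in either direction, against 0% of all genes tested. An unadjusted p under 0.05 was found for 4, where the share over all genes was 0.643%. With a block for replicate number, which removes the difference between the male and the female pair, limma called 3 linked genes higher and 1 lower in cKO, where 0.104% of all tested genes were called higher and 0.18% lower. An unadjusted p under 0.05 in the blocked fit was given to 115 linked genes (15.03%), against 11.4% of all tested genes.

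The genes called higher in cKO with the block were Errfi1, Ccl27a and Slit3. Errfi1 was at 112 and 99.1 FPKM in cKO and 47.5 and 31.9 FPKM in control, with no overlap between the groups. With 2 libraries per label, a lack of overlap, here and below, arises easily without a true difference. The share of all tested genes without overlap was not counted. The log2 change of Errfi1 was 1.41 ± 0.14 (limma's SE with the block), with an adjusted p of 0.0273 in limma. It shares its locus with 3 other rows. Ccl27a encodes a chemokine of skin keratinocytes and was at 1085 and 2290 FPKM in cKO and 461 and 788 FPKM in control, without overlap. Its log2 change was 1.39 ± 0.14, with a blocked adjusted p of 0.0273 in limma. Its row is uncertain, since rows of its near-identical copies, such as Ccl27b with 1034 and 2152 FPKM in cKO and 504 and 813 FPKM in control, carried almost the same values, and its locus is shared by 7 rows.

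Slit3, a secreted ligand of ROBO receptors, was at 33.6 and 13.1 FPKM in cKO and 14.03 and 4.02 FPKM in control. The groups overlapped, since cKO replicate 2 was below control replicate 1, while both same-numbered pairs had more in cKO. The log2 change was 1.35 ± 0.16 with a blocked adjusted p of 0.0347 in limma. Its shared peak, at chr11:35130991-35131811, was 821 bp wide in HFSC list 1, 498 bp in HFSC list 2 and 447 bp in the IFE list, and lay 196266 bp from the nearer edge of the 587285 bp locus.

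Mir23a was the gene called lower, at 10.8 and 7.01 FPKM in cKO and 47.3 and 18.8 FPKM in control, with no overlap. Its log2 change was -1.67 ± 0.20 with a blocked adjusted p of 0.0347 in limma. FPKM of a 76 bp hairpin rests on very few bases. The neighbouring Mir27a row, of 88 bp, was at 28.4 and 21.0 FPKM in cKO and 45.8 and 8.98 FPKM in control, and so moved in opposite directions in the pairs. Mir24-2 was at 24.3 and 8.47 FPKM in cKO and 37.0 and 11.7 FPKM in control.

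These 4 calls depended on the fit. Over 7 blocked settings of limma the adjusted p of Errfi1 ran between 0.00394 and 0.969, that of Ccl27a between 0.00603 and 0.969, and those of Slit3 and Mir23a between 0.0102 and 0.969. Each gene passed in 4 of the 7 and missed under quantile normalization, without a mean trend and without the filter on low values. Without the block none of the 4 passed in any of 7 settings. All kept their sign in every one of these settings and with each library left out.

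**Figure D4:**
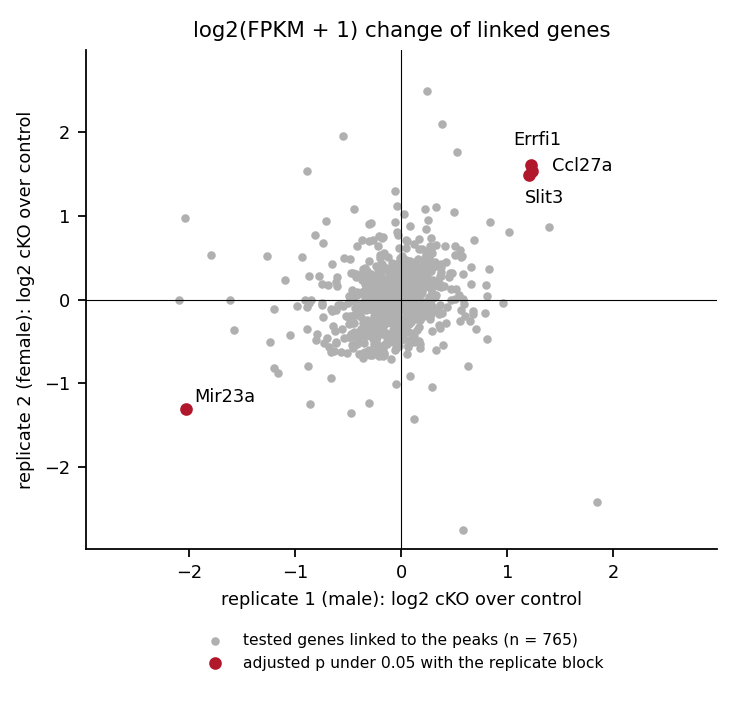
Log2 change of each tested linked gene (n = 765) in the male pair (replicate 1, horizontal axis) and the female pair (replicate 2, vertical axis), as cKO over control on the log2(FPKM + 1) scale. The 4 genes with an adjusted p under 0.05 in limma with the replicate block are red: Errfi1, Ccl27a and Slit3 lie at the upper right and Mir23a at the lower left.

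A shift of 1.5-fold or more that went one way in both pairs was seen for 7 linked genes that were higher in cKO, where 0.657% of all tested genes met that rule, and for 8 that were lower, where 1.2% did. The linked shares were 0.915% and 1.05%, near those of all genes. Besides the called genes, those higher were Spink2, Wnt11, Sema5a and Fgfr2. Wnt11, a WNT ligand of the non-canonical branch, was at 4.27 and 3.58 FPKM in cKO and 1.60 and 1.63 FPKM in control, and its blocked adjusted p in limma was 0.274. Fgfr2, an FGF receptor, was at 214 and 145 FPKM in cKO and 133 and 88.8 FPKM in control (blocked adjusted p 0.0942). Its locus of 3010074 bp is shared by 42 rows and held 4 shared peaks. Spink2, a serine protease inhibitor, was at 16.01 and 56.1 FPKM in cKO and 5.48 and 30.3 FPKM in control (blocked adjusted p 0.0766), and its shared peaks lay 25491 bp and further away. Sema5a, a transmembrane semaphorin, was at 11.2 and 3.81 FPKM in cKO and 5.82 and 1.55 FPKM in control.

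Besides Mir23a, those lower in both pairs were Mirlet7a-1, Itpripl1, Adamtsl4, 1190005I06Rik, Gm15122, Cobll1 and Extl3. The locus of 1190005I06Rik is shared by 159 rows and held 8 shared peaks, so its link says little. Gm15122 and Cobll1 each lie in a locus of 2 rows. Adamtsl4, a secreted matrix protein, was at 75.4 and 50.2 FPKM in cKO and 174 and 89.5 FPKM in control, without overlap, and its blocked adjusted p in limma was 0.0572. Itpripl1 was at 7.76 and 5.42 FPKM in cKO and 18.6 and 10.75 FPKM in control, also without overlap (0.0941). Extl3, a glycosyltransferase of heparan sulfate synthesis, was at 19.5 and 9.67 FPKM in cKO and 30.9 and 15.4 FPKM in control, and the groups overlapped. Log2 changes of these 7 ran between -1.05 for Mirlet7a-1 and -0.63 for Extl3, and none passed the blocked test.

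Gene lists of known function were then looked up among the linked rows, where 3.61% of all gene rows and 5.29% of all tested rows were linked. A longer locus more easily contains a peak, so the lists are described by counts alone. Over all tested genes, the blocked fit called 0.104% higher and 0.18% lower, and the fit on genotype alone 0%. At such shares a short list would rarely hold a call, so a count of 0 below is not a trait of a list. Of the 39 genes of HFSC identity, 6 were linked: Id2, Dkk3, Sfrp1, Nfatc1, Foxp1 and Sox6. None of them was called in either fit. Nfatc1, a transcription factor that holds bulge stem cells at rest, had 1 shared peak inside its locus and 1 at 1765 bp, and was at 46.7 and 14.1 FPKM in cKO and 76.7 and 19.8 FPKM in control. Its log2 change was -0.58 ± 0.14 with the block, and the blocked adjusted p in limma was 0.247. Sfrp1, a secreted WNT binder, was at 117 and 53.1 FPKM in cKO and 162 and 138 FPKM in control, without overlap, and its log2 change was -0.91 ± 0.21 (blocked adjusted p 0.219). Its shared peak was 35960 bp away. Dkk3 was at 192 and 124 FPKM in cKO and 234 and 168 FPKM in control, with overlapping groups. Id2, an inhibitor of basic helix-loop-helix factors, was at 307 and 216 FPKM in cKO and 314 and 198 FPKM in control.

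The WNT pathway had 12 of 61 genes linked, 10 of them with a shared peak inside the locus, and 0 of the 11 tested were called in either fit. They included the ligands Wnt4, Wnt7b, Wnt10a, Wnt11, Wnt5b, Wnt10b and Wnt3a, and Ctnnb1, which encodes β-catenin. Wnt4 was at 24.4 and 17.5 FPKM in cKO and 16.9 and 11.8 FPKM in control, higher in cKO in both pairs, with a log2 change of 0.52 ± 0.14 (blocked adjusted p in limma 0.326). Wnt10a was nearly level, at 15.5 and 14.7 FPKM in cKO and 13.4 and 13.8 FPKM in control. Ctnnb1 was at 427 and 311 FPKM in cKO and 460 and 305 FPKM in control.

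Of the TGF-β, activin and BMP list, 5 of 48 genes were linked and 0 were called. Ltbp4, a latent TGF-β binding protein, was at 218 and 171 FPKM in cKO and 168 and 137 FPKM in control, without overlap, and its log2 change was 0.35 ± 0.12 (blocked adjusted p in limma 0.383). Acvr1b, a type I activin receptor, was at 21.98 and 12.99 FPKM in cKO and 30.5 and 19.9 FPKM in control. Tgfbi, a TGF-β-induced matrix protein, was at 683 and 598 FPKM in cKO and 678 and 644 FPKM in control.

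Transcription factors of the epidermis and AP-1 had 10 of 50 genes linked, and 0 were called. Trp63 was at 252 and 149 FPKM in cKO and 252 and 136 FPKM in control, a log2 change of 0.067 ± 0.12. Tcfap2a was at 33.3 and 17.5 FPKM in cKO and 37.4 and 18.4 FPKM in control. Klf3 was lower in cKO in both pairs, at 45.8 and 27.9 FPKM against 65.7 and 43.8 FPKM in control, with a blocked adjusted p of 0.215 in limma. Jun and Fosb, subunits of AP-1, differed in direction between the pairs. Fosb was at 1270 and 372 FPKM in cKO and 837 and 427 FPKM in control. Both of its shared peaks lay outside the locus, at 9617 and 12338 bp.

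Genes of matrix and adhesion had 11 of 56 linked, 9 with a shared peak inside, and 0 were called. Dsp, Dst, Pkp1 and Plec, which anchor intermediate filaments at junctions, were among them, with Cdh1, Cdh3 and Itga3. Cdh1, the E-cadherin gene, was at 108 and 57.9 FPKM in cKO and 129 and 84.3 FPKM in control, with a log2 change of -0.40 ± 0.13 (blocked adjusted p in limma 0.376). Dsp, the desmoplakin gene, was at 707 and 201 FPKM in cKO and 771 and 234 FPKM in control. For Dsp, Dst and Plec both replicate 1 libraries were above both replicate 2 libraries, whatever the label.

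Of the remaining lists, regulators of actin and cell shape had 10 of 43 genes linked, all with a shared peak inside the locus, and 0 called. Macf1, which links actin to microtubules, was at 151 and 48.1 FPKM in cKO and 197 and 63.9 FPKM in control. Rnd3, a small GTPase of the actin skeleton, was at 82.9 and 65.8 FPKM in cKO and 51.6 and 72.2 FPKM in control, so the pairs differed in direction. EGF and FGF signalling had 3 of 44 linked, namely Errfi1, Fgfr2 and Tgfa, and Errfi1 was called higher in the blocked fit alone, in 4 of its 7 settings. Tgfa, an EGF receptor ligand, was at 3.71 and 3.82 FPKM in cKO and 3.89 and 4.74 FPKM in control. Cartilage targets of SOX9 had 2 of 27 linked, Chst11 and Sox6. Chst11, a chondroitin sulfotransferase, was at 2.46 and 2.19 FPKM in cKO and 3.61 and 2.09 FPKM in control.

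The most abundant linked genes were mostly genes of keratinocytes or of every cell. Krtdap, a secreted protein of differentiating keratinocytes, was at 966 and 2767 FPKM in cKO and 1085 and 4361 FPKM in control, and its shared peak lay 3842 bp away. Like the summed markers of differentiated epidermis, it was higher in both replicate 2 libraries. Perp, a membrane protein of desmosomes, was at 1471 and 1673 FPKM in cKO and 1447 and 1966 FPKM in control, with its shared peak 18581 bp away. Anxa2, Itm2b, Cd9, Rpl18 and Atp5b were also among the 10 highest, and their log2 changes lay between -0.11 and 0.36 with no call.

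Of the 20 linked microRNA rows, 9 were listed at 0 in every library and 5 passed the filter. The most abundant was mmu-mir-689-2, at 92.1 and 355 FPKM in cKO and 70.3 and 82.7 FPKM in control, with a blocked adjusted p of 0.326 in limma, and it is listed under another current symbol, Gm23935. Mirlet7a-1 was at 1.10 and 0.728 FPKM in cKO and 2.82 and 3.09 FPKM in control, with no overlap and a blocked adjusted p of 0.255 in limma. Mir23b and Mir27b, which share a locus with 2 shared peaks, differed in direction between the pairs: Mir23b was at 8.48 and 10.04 FPKM in cKO and 38.1 and 4.62 FPKM in control. Mir205 was listed at 0 in all but cKO replicate 2, at 1.02 FPKM. The row 4631405K08Rik, with the same coordinates, was at 5.47 and 7.56 FPKM in cKO and 14.2 and 11.2 FPKM in control. The shared peak near Mir205 lay at chr1:195376711-195377471, 40714 bp from that locus.

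**Figure D5:**
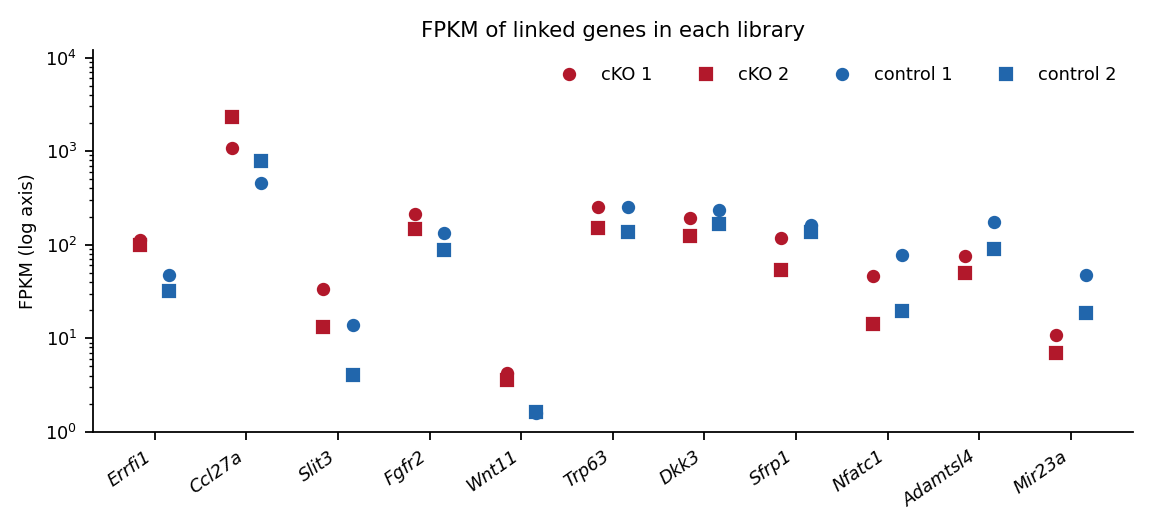
FPKM (log axis) of 11 linked genes in each RNA library, cKO in red to the left and control in blue to the right, with circles for replicate 1 (male) and squares for replicate 2 (female). Errfi1 and Mir23a do not overlap between the labels, while Trp63 stands at 252 and 149 FPKM in cKO and 252 and 136 FPKM in control.

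Genes linked to shared peaks were set beside those linked to HFSC peaks absent from the IFE list, under the same rules. Of the 765 genes linked to shared peaks, 8 (1.05%) were at least 1.5-fold lower in cKO in both pairs and 7 (0.915%) higher. Of the 445 tested genes linked to peaks of both HFSC lists without IFE, and not to a shared peak, 27 (6.07%) were lower and 7 (1.57%) higher. Of the 1973 linked to peaks of HFSC list 1 alone, and likewise not to a shared peak, 61 (3.09%) were lower and 16 (0.811%) higher. Over all tested genes the shares were 1.2% and 0.657%. A gene linked to both kinds of HFSC peak counts in both the 445 and the 1973, so these groups are not separate. The 765 had no such exclusion and can also be linked to HFSC peaks absent from the IFE list. The blocked fit called 1 gene lower and 3 higher of the 765, 9 lower and 1 higher of the 445, and 12 lower and 1 higher of the 1973, where 0.18% of all tested genes were called lower and 0.104% higher. On genotype alone limma called 0 in each group. Among rows alone at their locus, 5 of 238 (2.10%) linked to shared peaks and 12 of 184 (6.52%) linked to the HFSC peaks absent from the IFE list were lower by that rule. The difference between these gene groups was not tested.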

How the data were processed

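SOX9 ChIP-seq (3 libraries) and RNA sequencing (4 libraries) were used, and the input libraries were not used here. The authors deposited peaks as chromosome, start and end, 1 list per ChIP library with no height or score, and expression as FPKM per gene row, per the file headers. Per the submitters' processing notes the tools were Bowtie, TopHat, TopHat2 and Cufflinks 1.0.3 and the build mm9, with no roles stated. Neither the peak caller with its threshold and inputs nor the read depth is given in the sources used here, so FPKM has no counting interval and a value at 0 is only listed at 0.

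Peak starts were taken as counted from 0 and written from 1. Overlaps, distances to locus edges (limit 1000 bp), links (100 kb) and clusters (25 kb) were computed with pandas 2.3.3, and shares carry exact (Clopper-Pearson) 95% intervals. Values were tested as log2(FPKM + 1), a scale that understates changes of low genes, with limma 3.58.1 in R 4.3.3 (mean trend, two-sided, Benjamini-Hochberg at 0.05) over the 14455 genes with mean FPKM of at least 1. The main fit had genotype alone. Tested on simulated data with a spread between pairs, both fits returned the log2 changes put in. The genotype-only fit called none of the changed genes there, so 0 calls on genotype alone do not show that genes did not differ. How often the blocked fit finds changed genes in these libraries was not tested. The replicate numbers pair the libraries, since same-numbered libraries share sex, age and RU486 days per the labels, and their deviations from the group means had a correlation of 0.812 (over genes, not over independent units). With the block, 1 residual degree of freedom is left for each gene.

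The regions, gene lists and tests were chosen with earlier results of these data known. Named genes were Sox9, those with the most peaks inside, up to 10 highest and lowest changes of at least 1.5-fold in both pairs, the 10 highest in control, called genes, and up to 6 per list by control FPKM. Tcfap2a, Wnt5b, Wnt10b, Wnt3a, Plec, Cdh3, Itga3, the multi-peak loci, Mir23b, Mir27b, Mir205, 4631405K08Rik and the neighbouring rows of called genes were named after their values were seen. Alternatives were other overlaps, edge limits, pseudocounts, filters, scalings and libraries left out.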

Additional observations from a re-analysis of the deposited data

Results flagged for a closer look

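Some genes changed in opposite directions in the male and the female pair. There is 1 pair of each sex, and the pairs also differ in age and RU486 days, so these cannot be told apart. Among the genes named by rule, 2 had opposite changes of more than 0.2 on the log2 scale in both pairs, and this difference was not tested. Sox9, which has no linked peak and serves as the check of the labels, had a log2 change, cKO over control, of 0.78 in the female pair and -0.21 in the male pair. Jun, whose locus of 4 rows holds a shared peak, had -0.25 in the female pair and 0.56 in the male pair. Opposite changes beyond 0.2 in both pairs were found for 69 of the 765 tested linked genes and for 1182 of all 14455 tested genes.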

How the results depend on the processing

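The number of shared peaks was 1248 with no distance rule, and 809 to 1454 with 1 peak list left out. The share inside loci was 37.7% with no distance rule and 54.7 to 63.0% with 1 list left out; other overlaps and edge limits kept the number within 1.5 times. Without the block, 0 linked genes were called under every pseudocount, filter, scaling and link rule tried. With the replicate block 3 were called higher and 1 lower, and the same numbers with a pseudocount of 0.1; it was 4 and 2 with a pseudocount of 5, 3 and 2 with mean FPKM of at least 5, and 0 and 1 among rows alone at their locus. It was 0 in both directions with quantile normalization, without a mean trend and without a filter. With 1 RNA library left out, 0 to 1 were called higher and 0 to 1 lower (1 each without cKO replicate 1), and the median log2 change ran from -0.18 to 0.089, where the lone library is assumed to vary like the rest. The cause of these differences was not tested. The share of peaks with a SOX motif was not run, since no mm9 genome was used, and a stricter peak threshold could not be tried, since the lists hold no score.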
